A study of Mus musculus with 145 samples.

Results

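The comparison described here set dorsal skin taken 48 h after 40 mJ/cm2 of ultraviolet light against dorsal skin of sham-handled mice taken at the same time. Its libraries were taken by the labels alone, as every library labelled for those 2 combinations of dose and time. This gave 5 irradiated and 5 sham animals, 10 of the 145 libraries analysed. The light came from a tanning canopy of 8 fluorescent lamps (100 W each) whose output was 96.4% UVA and 3.6% UVB. The series crossed 5 doses (0, 5, 10, 20 and 40 mJ/cm2) with 6 times after exposure in a randomised design, and poly(A) RNA was sequenced from the dorsal skin of each animal. The sham animals were handled like the others at a dose of 0. The labels and files used here do not state the strain, sex or age of the mice, nor any genetic alteration. Skin markers were high in all 10 libraries, with Krt10, the keratin of the upper epidermis, at 836 to 2740.0 CPM and Krt14, that of its basal layer, at 782 to 4656 CPM, and markers of muscle, hair and fat were present too.

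Skin answers ultraviolet damage in stages. Keratinocytes that carry damaged DNA turn on p53 target genes and either stop dividing or die, and the surviving ones release cytokines and growth factors of the epidermal growth factor family, switch from their resting keratins to keratins 6 and 16, and thicken the epidermis. Neutrophils and then monocytes follow chemokines out of the vessels, while Langerhans cells and the resident γδ T cells of mouse epidermis can leave or be lost.

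The 5 sham animals are numbered 76 to 80 in the labels and the 5 irradiated animals 96 to 100, and values per animal are given below in that order. Total counts ran from 3.88 to 23.6 M in sham (1 M is 1000000 counts) and from 5.83 to 13.3 M at 40 mJ/cm2. Levels are counts per 1000000 (CPM) on scaled library sizes, with SD over n = 5 animals, and changes are log2 fold changes against sham, given as the change ± its standard error (SE). A gene rose or fell where edgeR's quasi-likelihood test gave a Benjamini-Hochberg adjusted p under 0.05 over all genes tested. Each library is 1 animal per the labels. Sham animals 76 and 77 and irradiated animals 96 and 97 have titles ending in R1_001 and the other 6 in R1, an ending whose meaning the labels do not give and which was kept as a covariate. Markers of skeletal muscle stood lower in the irradiated skin. The mean level of 25 such genes was 10.23 to 10.98 log2 CPM in sham and 9.26 to 9.90 log2 CPM at 40 mJ/cm2, without overlap, and mitochondrially encoded genes gave 4.37% ± 1.07 of counts in sham and, again lower, 2.78% ± 0.693 at 40 mJ/cm2 (SD, n = 5).

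Of 18677 genes tested, 741 rose and 702 fell (3.97% and 3.76% of the genes, 7.73% in all), and 520 rose and 346 fell at least 2-fold. All 5 irradiated values lay above all 5 sham values in 1092 genes (5.85%) and below them in 1205 (6.45%), which held for 558 of the genes that rose and 569 of those that fell. Of the genes with more than 3 sham counts named here, the largest rises were in Saa3 (10.54 ± 0.83), an acute phase apolipoprotein, and in Krt6b (8.27 ± 0.81 log2 units), the keratin of wounded epidermis. The largest fall was in Inmt (-2.87 ± 0.55 log2 units), an enzyme that methylates indole amines. With libraries scaled by total counts alone, the median change over all genes moved from -0.007 to 0.143 and 72.5% in place of 51.4% of the calls were rises, and all 741 genes that rose and all 702 that fell kept their sign. Fitting the 10 libraries alone gave 1680 rises and 1375 falls. Leaving out irradiated animal 98 gave 487 and 355, irradiated animal 100 588 and 369, and sham animal 80 509 and 386, and the falls numbered 431, 457 and 444 without animals 97, 76 and 79. Once the muscle level was a covariate, 497 of the 741 rises and 256 of the 702 falls were still called, against 421 and 197 among the R1 libraries alone and 19 and 0 among the R1_001 libraries alone, which hold 2 animals per group. With the muscle covariate all 741 rises and 671 of the 702 falls kept their sign. The muscle level and the dose cannot be told apart in these 10 animals, whose muscle levels do not overlap between the groups.

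**Figure D1:**
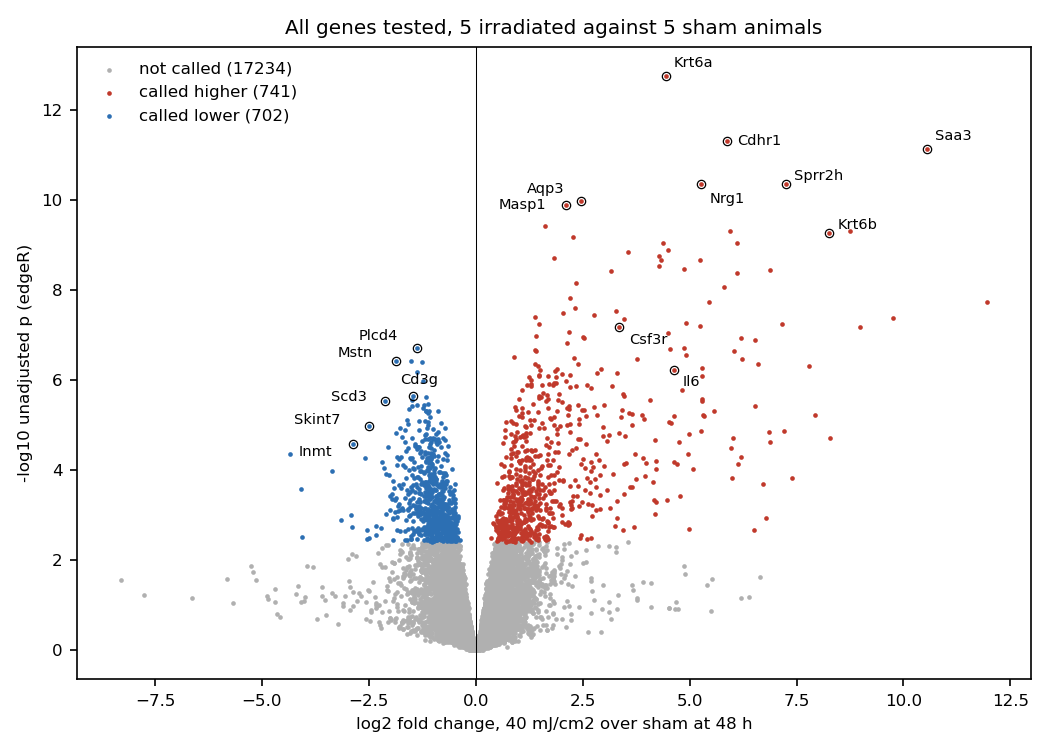
Each of the 18677 points is a gene, placed by its log2 fold change at 48 h (40 mJ/cm2 over sham, x axis) and by minus log10 of its unadjusted p in edgeR's quasi-likelihood test (y axis), with the 741 genes called higher in red and the 702 called lower in blue. Saa3 on the right lies at 10.54 and Inmt on the left at -2.87. Genes with 0 sham counts are drawn too, at fitted values that depend on the prior count.

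Stressed keratinocytes were the gene group with the most calls of the 61 lists looked at. Of 30 genes that mark stressed or hyperproliferative keratinocytes, 22 rose and the other 8 did not pass (3.97% of all genes tested rose), with a median change of 4.90 (and 4.83 with the genes at 0 sham counts set to their lower bound) against -0.007 over all genes. Krt6a, a keratin of hair follicle and wound-edge epidermis, had the smallest p of the whole comparison. It stood at 97.4, 107, 114, 90.1 and 61.9 CPM in the sham animals and 1013, 1991, 3357, 1868 and 2034 CPM in the irradiated animals. Every irradiated animal lay well above every sham animal, and the rise was 4.44 ± 0.29 log2 units (edgeR adjusted p = 3.23e-09). Its partner Krt16 rose by 6.11 ± 0.62, from 14.9 ± 13.8 CPM in sham to 998 ± 483 CPM (SD, n = 5), and Krt14, the keratin of basal cells, by 1.70 ± 0.39 log2 units. Sprr2h, one of the small proline-rich precursors of the cornified envelope, stood at 0, 0.167, 0.805, 0.121 and 0.128 CPM in the sham animals and 12.4, 33.5, 82.2, 47.6 and 48.9 CPM in the irradiated animals. The sham values are close to 0, the groups do not overlap, and the rise was 7.25 ± 0.63 log2 units (adjusted p = 1.65e-07). Its relatives Sprr1b, Sprr2a3, Sprr2a2 and Sprr2d rose by 5.95 ± 0.58, 5.29 ± 0.85, 4.55 ± 0.62 and 6.88 ± 0.67, and the stefin protease inhibitors Stfa1 and BC100530 by 4.88 ± 0.53 and 4.92 ± 0.69 log2 units. Sprr2e had 0 counts in all sham animals and 145 after irradiation, at least 60-fold higher against a floor of 3 counts over the sham group. Krt17 had 1.20 ± 0.41 log2 units (edgeR adjusted p = 0.0756) and, of the fits without 1 animal, passed only in the one without sham animal 77 (adjusted p = 0.0465). It also passed with the muscle level as a covariate, with a change of 1.69 (edgeR adjusted p = 0.0467). Members of the Krt6, Sprr2 and Stfa families share sequence, and the expected counts could move reads between them, so values of single members are uncertain.

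The promoters of 2 of these genes are shown because both carry the AP-1 motif, the recognition sequence of Fos and Jun dimers, in the bases before the gene start. The sequences are RefSeq's for build GRCm38.p6 and give the 250 bases before the start, 5′ to 3′ on the gene's own strand; capitals mark matches to TGANTCA on either strand. Sprr2h is at chr3:92385435-92385684 (plus strand) and Sprr1b at chr3:92438780-92439029 (minus strand), and the matches begin 198 and 111 bases before the starts.
Sprr2h: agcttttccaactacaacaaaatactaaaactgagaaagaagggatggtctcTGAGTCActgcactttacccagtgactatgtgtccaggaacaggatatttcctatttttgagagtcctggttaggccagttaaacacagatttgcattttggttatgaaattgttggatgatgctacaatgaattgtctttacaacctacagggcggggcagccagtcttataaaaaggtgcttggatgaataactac
Sprr1b: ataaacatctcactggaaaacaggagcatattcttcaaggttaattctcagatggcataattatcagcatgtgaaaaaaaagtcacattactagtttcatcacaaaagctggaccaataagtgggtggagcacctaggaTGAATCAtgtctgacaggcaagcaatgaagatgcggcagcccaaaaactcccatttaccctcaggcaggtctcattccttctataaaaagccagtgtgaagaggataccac
Of the 30 keratinocyte genes 25 had a promoter in the RefSeq table, and 28% of these held the AP-1 letters, compared with 6.25% of the 12570 tested genes with a promoter and 6.75% of all 32851 windows. The shares were 11.7% of 547 genes that rose and 6.39% of 501 that fell. The letters TATAAA, searched on the gene's own strand, were in 21% of the 157 promoters of genes that rose at least 4-fold and in 5.66% of tested genes. None of the motifs searched contains another, and a match describes the letters only, not a bound site.

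Some epidermal peptidases and inhibitors and a few lipid genes of the barrier rose beside the keratins, while most members of both lists did not pass. Of 25 serine peptidases and inhibitors of the epidermis 8 rose and 1 fell (median 0.83). Among them were the kallikreins Klk6 (4.49 ± 0.59) and Klk10 (2.24 ± 0.44), which cleave junctions during shedding, and Slpi (5.45 ± 0.65), which inhibits neutrophil elastase, while Serpinb6e fell by 1.94 ± 0.43 on the log2 scale. Aqp3, the channel that carries water and glycerol through epidermal cells, stood at 41.0, 41.1, 62.9, 45.6 and 32.9 CPM in the sham animals and 192, 224, 382, 176 and 264 CPM in the irradiated animals. It was higher in all irradiated animals, with a rise of 2.46 ± 0.22 log2 units (edgeR adjusted p = 3.3e-07). Of 20 genes of ceramide and barrier lipid synthesis 3 rose: Nipal4 (0.81 ± 0.18), the ceramide synthase Cers3 (0.94 ± 0.21) and the glucosylceramide synthase Ugcg (1.08 ± 0.24 log2 units). Of 24 genes of late terminal differentiation only the peptidase Klk7 passed (1.36 ± 0.40), the median was -0.46, and loricrin (Lor) had -0.98 ± 0.55 (adjusted p = 0.354) and filaggrin (Flg) 1.05 ± 0.57 log2 units (adjusted p = 0.33). Without 1 animal edgeR no longer called Klk7 (without 76, 78, 79, 80, 97, 98, 99 or 100, edgeR adjusted p up to 0.108). Adding the muscle level to the fit ended the call of Klk10, Serpinb6e, Nipal4, Cers3, Ugcg and Klk7 (edgeR adjusted p = 0.0513 to 0.353).

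**Figure D2:**
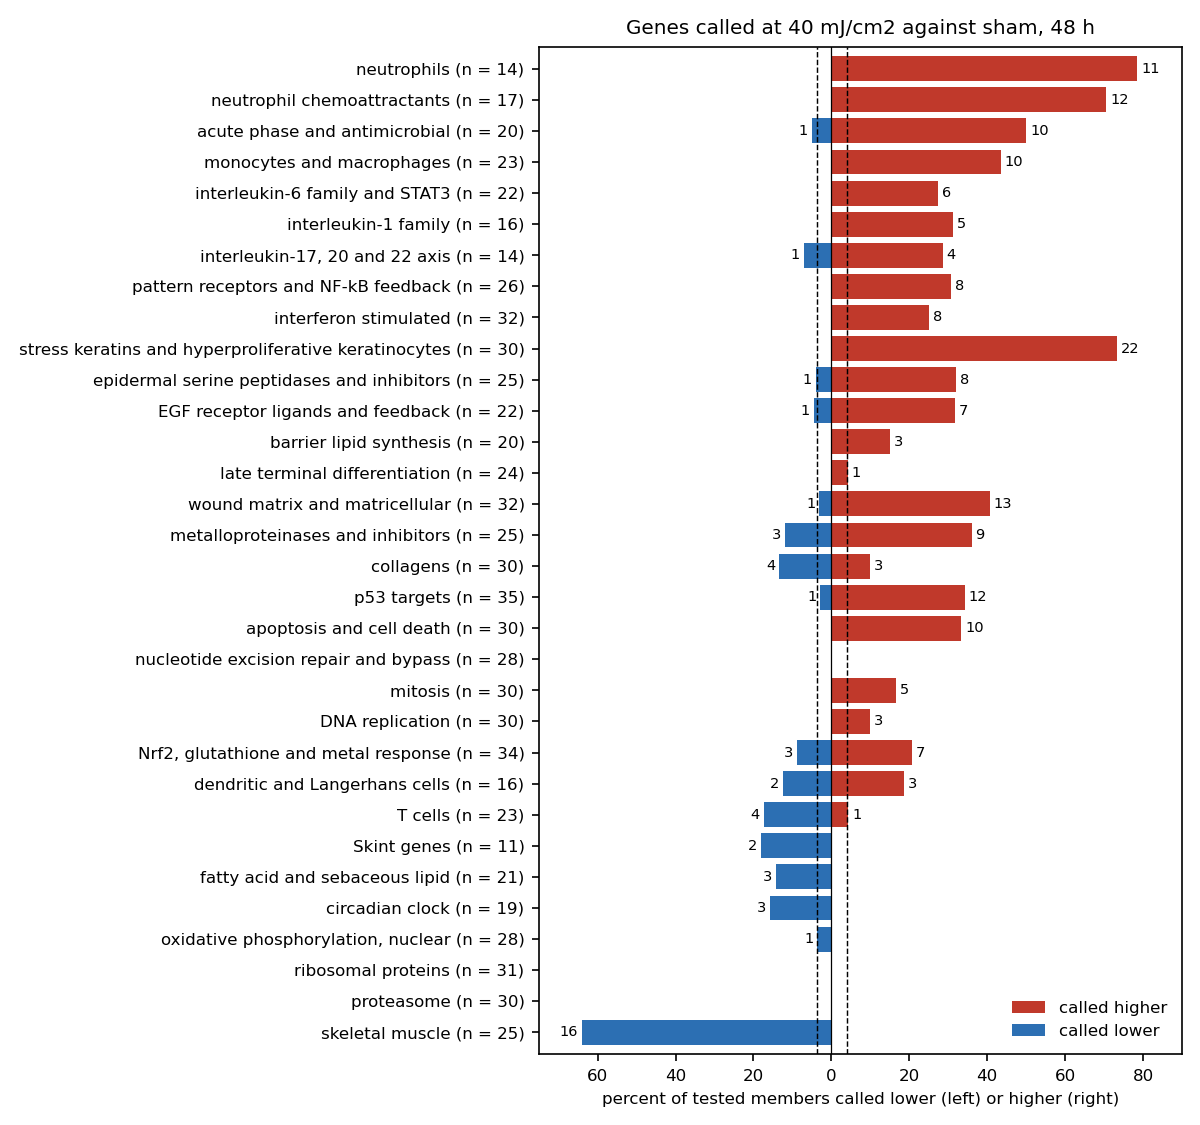
Bars give, for each gene list on the y axis, the percent of its tested members called higher (red, to the right) and called lower (blue, to the left) at 40 mJ/cm2 against sham at 48 h; dashed lines mark the 3.97% and 3.76% over all genes tested. Neutrophil and stressed keratinocyte genes have the longest red bars (11 of 14 and 22 of 30), and skeletal muscle has the longest blue one (16 of 25).

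Several growth factors of the epidermal growth factor family rose in the same skin. Of 22 ligands, receptors and feedback regulators of this pathway, 7 rose and 1 fell, with a median of 0.25. Nrg1 encodes neuregulin, a ligand of the ErbB3 and ErbB4 receptors, and stood at 0.542, 0.251, 0.585, 0.729 and 0.128 CPM in the sham animals and 5.65, 10.6, 32.7, 23.1 and 19.4 CPM in the irradiated animals. It was near the limit of detection in every sham animal and higher in all irradiated ones, by 5.27 ± 0.45 log2 units (edgeR adjusted p = 1.65e-07). Amphiregulin (Areg), a keratinocyte ligand of the epidermal growth factor receptor, was at 2.17, 2.47, 0.512, 0.486 and 1.79 CPM in the sham animals and 7.91, 7.70, 26.1, 8.96 and 11.2 CPM in the irradiated animals. Its groups did not overlap either, and it rose by 3.19 ± 0.49 log2 units. The ligands Epgn, Tgfa and Hbegf rose by 2.83 ± 0.48, 1.92 ± 0.31 and 1.38 ± 0.30 and the phosphatase Dusp5, a feedback inhibitor, by 1.16 ± 0.26 log2 units. Egf itself fell by 0.83 ± 0.21 on the log2 scale, from 29.9 ± 6.18 CPM in sham to 16.8 ± 2.74 CPM (SD, n = 5). From another family, Fgf23, best known as the phosphate hormone of bone, had 1 count in all sham animals together and 609 in the irradiated ones, a ratio of 756 per total counts with an exact 95% interval of 135 to 29900 that covers counting error only. Its level was 0 CPM in sham animals 76, 77, 79 and 80 and 8.88, 2.34, 16.8, 10.1 and 16.3 CPM in the irradiated animals. Cdhr1, a cadherin-related gene, stood at 0.271, 0.251, 0.146, 0.182 and 0.128 CPM in the sham animals and 8.23, 17.9, 16.8, 7.22 and 9.09 CPM in the irradiated animals. It was barely detected in sham and rose by 5.87 ± 0.45 (edgeR adjusted p = 4.5e-08), and Slc25a48, a mitochondrial carrier gene, rose by 1.61 ± 0.16 log2 units. The call was lost without 1 animal for Egf (without 80 or 98, edgeR adjusted p up to 0.0592). The muscle level as a covariate ended the call of Egf (edgeR adjusted p = 0.535).

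Single cytokines of the interleukin-6, interleukin-1 and interleukin-20 groups rose, and so did some of their receptors. Of 22 genes of the interleukin-6 family and its STAT3 signalling 6 rose and the other 16 did not pass (median 0.33). Il6 stood at 0.271, 1.00, 0.585, 0.243 and 1.66 CPM in the sham animals and 26.5, 3.81, 33.0, 8.82 and 21.6 CPM in the irradiated animals. The lowest irradiated animal, 97, was above the highest sham animal, 80, and the rise was 4.63 ± 0.68 log2 units (edgeR adjusted p = 0.000146). The ligands Clcf1 and Osm rose by 2.20 ± 0.26 and 3.06 ± 0.58, the feedback inhibitor Socs3 by 1.22 ± 0.34 and the oncostatin receptor Osmr by 0.65 ± 0.19, while Stat3 had 0.40 ± 0.15 log2 units (adjusted p = 0.122). Of 16 interleukin-1 family genes 5 rose: Il1b (2.97 ± 0.53), the alarmin Il33 (1.86 ± 0.27), its receptor Il1rl1, the receptor Il1r1 (1.12 ± 0.21) and the inflammasome sensor Nlrp3 (2.59 ± 0.40 log2 units). Il1rl1, known as ST2, was at 7.87, 6.94, 9.37, 6.86 and 6.52 CPM in the sham animals and 17.8, 24.8, 52.7, 49.1 and 48.9 CPM in the irradiated animals. Animals 98 to 100 were the highest, the groups did not overlap, and the rise was 2.32 ± 0.28 log2 units (adjusted p = 1.47e-05). Of 14 genes of the interleukin-17, 20 and 22 axis 4 rose and 1 fell (2 fell without animal 77 or 99). Il24, a cytokine that signals to keratinocytes, had 0 counts in all sham animals and 1.29, 2.68, 17.9, 11.5 and 9.55 CPM after irradiation, at least 218-fold higher against the floor of 3 counts. Il19 and the receptor Il17ra rose by 3.31 ± 0.81 and 1.16 ± 0.22 log2 units. The receptor chain Il20ra, through which Il19 and Il24 can signal, fell by 1.48 ± 0.24 on the log2 scale, from 31.7 ± 7.86 CPM in sham to 11.4 ± 3.63 CPM (SD, n = 5). Loss of 1 animal from the fit ended the call of Socs3 (without 76, 78, 79, 98 or 100, edgeR adjusted p up to 0.115) and Osmr (without 76, 77, 78, 79, 80, 98, 99 or 100, edgeR adjusted p up to 0.113). With the muscle level as a covariate, the call ended for Osmr (edgeR adjusted p = 0.18), while Stat3 was called, with a change of 0.74 (edgeR adjusted p = 0.0107).

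Neutrophil genes and the chemokines that attract neutrophils were among the strongest rises, with the highest levels in irradiated animals 98 to 100. Of 20 neutrophil markers listed 14 were tested, and the rest were removed by the filter on low counts. Of the 14, 11 rose and the other 3 did not pass (median 4.04). That filter can keep a gene near 0 in sham because it is high in another group, so this share and median describe the tested members only. With no filter edgeR called 12 of the listed markers higher and 1 lower. Of 17 neutrophil chemoattractants and their receptors 12 rose (median 2.60, and 2.60 with Cxcl3 and Cxcl5 at their lower bounds). Csf3r, the receptor for granulocyte colony-stimulating factor on neutrophils, was at 2.17, 3.68, 6.22, 4.43 and 8.96 CPM in the sham animals and 16.0, 13.0, 103, 72.7 and 78.0 CPM in the irradiated animals. Animals 98 to 100 were several times higher than 96 and 97, which were themselves above all sham animals, and the rise was 3.34 ± 0.43 log2 units (edgeR adjusted p = 2.92e-05). The mean level of the 14 markers was 1.74, 1.11, 3.65, 3.67 and 3.42 log2 CPM in animals 96 to 100 and ran from -0.89 to 0.72 in sham. Animals 96 and 97 share the title ending R1_001, so this difference and the ending cannot be told apart. Among the R1 libraries alone all 11 of the markers were called, and among the R1_001 libraries alone, with 2 animals per group, 0 were. The calprotectin subunit genes S100a8 and S100a9 rose by 5.33 ± 0.92 and 5.58 ± 0.94, and the chemokine receptor Cxcr2 by 4.87 ± 0.66 log2 units. In contrast Mmp9 had 0.05 ± 0.31 and the decoy receptor Il1r2 -0.78 ± 0.35 log2 units (adjusted p = 0.967 and 0.207). Cxcl5, a ligand of Cxcr2, was at 0 counts in all sham animals and at 5.97, 2.07, 106, 51.9 and 48.0 CPM after irradiation, at least 1060-fold higher. The ligands Cxcl1 and Cxcl2 rose by 3.88 ± 0.66 and 2.60 ± 0.80 log2 units and Cxcl3 by at least 38.5-fold. In bulk RNA, more cells of a type and more RNA per cell cannot be told apart. Leaving out 1 animal ended the call of Cxcl2 (without 76, 78, 79, 96, 98, 99 or 100, edgeR adjusted p up to 0.144).

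The promoters of Il6, Cxcl1, Cxcl2 and Cxcl3 are shown because each holds the motif of NF-kB, the factor that many inflammatory signals converge on, close to the gene start. Capitals mark matches to GGGA, any base and TTTCC on either strand and, in Il6, to the AP-1 letters. They lie at chr5:30012864-30013113 (plus strand), chr5:90890995-90891244 (plus strand), chr5:90903649-90903898 (plus strand) and chr5:90785851-90786100 (plus strand) in GRCm38.p6, and the NF-kB matches begin 44, 71, 97 and 73 bases before the starts.
Il6: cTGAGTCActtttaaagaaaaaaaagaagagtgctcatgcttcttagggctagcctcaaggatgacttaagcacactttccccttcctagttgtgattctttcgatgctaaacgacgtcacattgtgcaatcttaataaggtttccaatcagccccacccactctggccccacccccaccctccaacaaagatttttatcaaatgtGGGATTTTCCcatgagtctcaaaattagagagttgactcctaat
Cxcl1: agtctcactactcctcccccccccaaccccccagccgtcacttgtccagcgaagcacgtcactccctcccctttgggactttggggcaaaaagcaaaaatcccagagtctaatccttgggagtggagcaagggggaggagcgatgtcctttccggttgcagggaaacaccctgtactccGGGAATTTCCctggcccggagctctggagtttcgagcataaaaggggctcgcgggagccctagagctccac
Cxcl2: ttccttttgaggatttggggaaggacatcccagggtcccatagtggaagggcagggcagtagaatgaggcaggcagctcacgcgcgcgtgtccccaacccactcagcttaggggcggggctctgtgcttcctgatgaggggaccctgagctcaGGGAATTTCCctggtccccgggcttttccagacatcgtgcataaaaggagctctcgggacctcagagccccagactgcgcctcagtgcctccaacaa
Cxcl3: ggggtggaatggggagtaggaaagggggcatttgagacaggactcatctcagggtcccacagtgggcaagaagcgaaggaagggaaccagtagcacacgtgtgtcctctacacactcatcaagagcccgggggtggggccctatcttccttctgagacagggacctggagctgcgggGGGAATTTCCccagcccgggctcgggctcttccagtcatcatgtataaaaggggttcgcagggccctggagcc
These letters were in 4 of the 14 chemoattractant list promoters found (28.6%), 3 of them of genes that rose, and in 3.82% of promoters of genes that rose at least 4-fold, 2.01% of all that rose, 0.599% of those that fell, 0.509% of tested genes and 0.356% of all windows. The STAT letters TTCNNNGAA were in 8.04% of the genes that rose and 7.16% of tested genes, and the C/EBP letters TTGCGNAA in 1.1% and 1.11%, all on either strand.

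Several acute phase and antimicrobial genes rose too, with Saa3 highest in the same 3 animals. Of 20 such genes 10 rose and 1 fell (median 1.84). Saa3 was at 0, 0.251, 0.293, 0.304 and 0.640 CPM in the sham animals and 158, 74.6, 987, 815 and 626 CPM in the irradiated animals. The lowest irradiated animal, 97, stood far above the highest sham animal, 80, and the rise was 10.54 ± 0.83 log2 units (edgeR adjusted p = 4.5e-08). Lcn2, the lipocalin that withholds iron from bacteria, rose by 4.29 ± 0.46, the chitinase-like Chil3 by 3.46 ± 0.55, Serpina3n by 2.05 ± 0.25 and the pentraxin Ptx3 by 2.21 ± 0.40 log2 units. Saa2 had 0 counts in sham and 320 after irradiation, at least 132-fold higher. The lysozyme gene Lyz1 fell by 1.10 ± 0.24 on the log2 scale, from 56.8 ± 9.40 CPM in sham to 26.4 ± 4.74 CPM (SD, n = 5). Of 26 complement and coagulation genes 5 rose and 1 fell, with rises of 1.16 ± 0.23 for the complement receptor gene C3ar1, 1.33 ± 0.31 for the urokinase receptor gene Plaur and 1.01 ± 0.21 log2 units for thrombomodulin (Thbd). The number of complement and coagulation rises became 3 without animal 79, 98 or 99. The number of complement and coagulation falls became 0 without animal 80, 97 or 98.

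**Figure D3:**
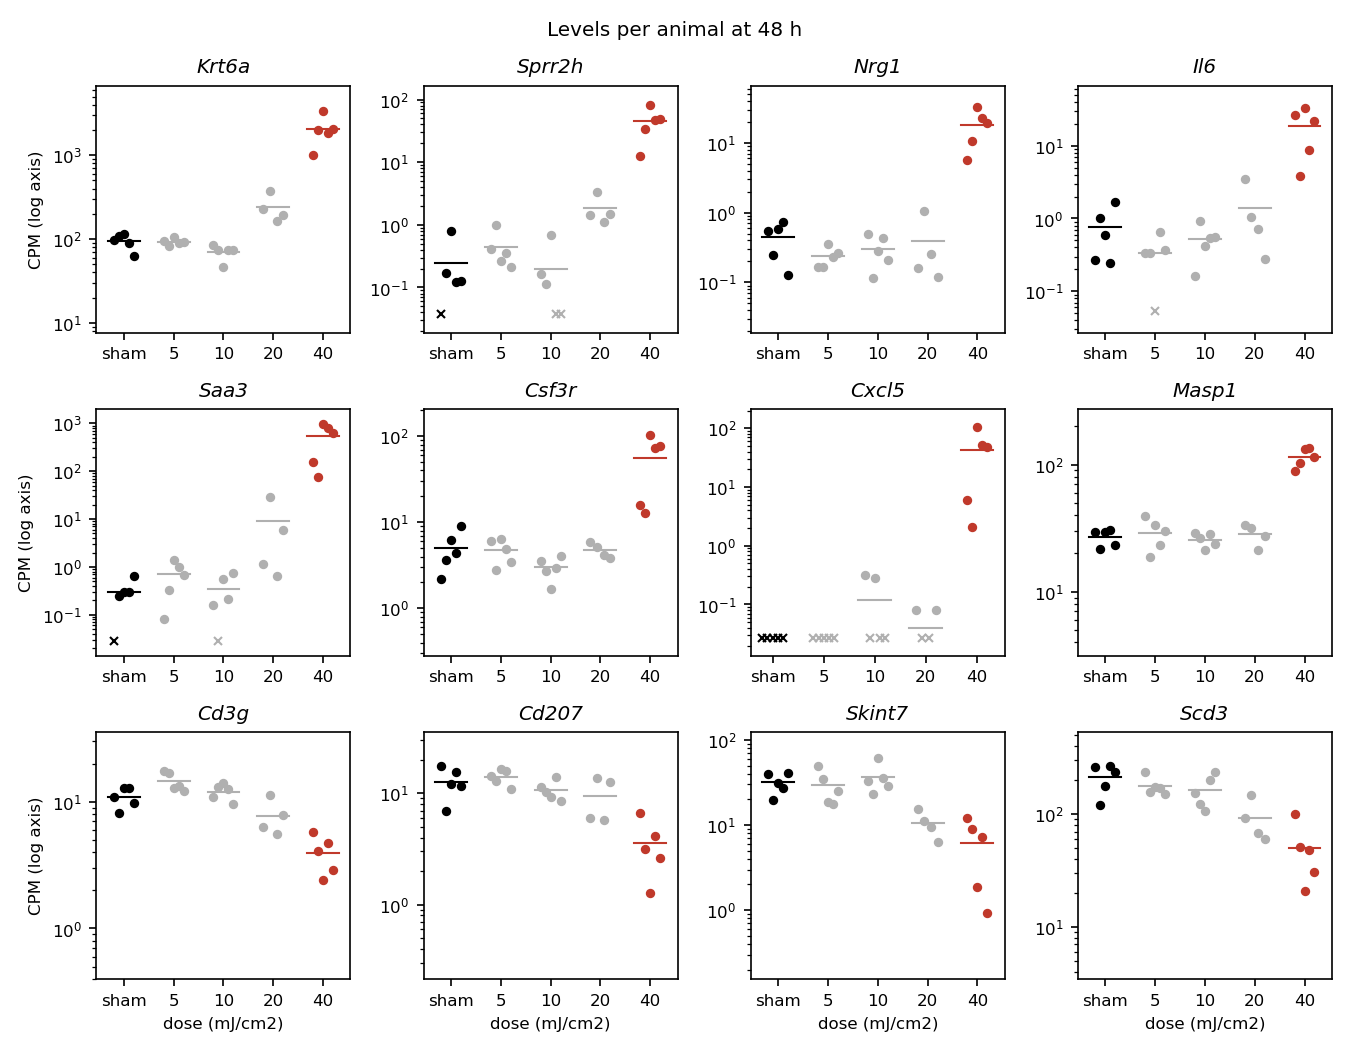
Each point is 1 animal's level in CPM on a log axis (values at 0 are drawn as crosses at the bottom) for 12 genes, with 5 animals per dose (4 at 20 mJ/cm2) at 48 h along the x axis and short lines at the group means. In the upper 8 panels the 40 mJ/cm2 points lie above all sham points, as for Krt6a (from 1013 CPM against at most 114 CPM), and in the bottom row they lie below them, as for Cd3g.

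Some monocyte and macrophage markers and pattern recognition receptors rose as well. Of 23 monocyte and macrophage markers 10 rose (median 0.70). Msr1, a scavenger receptor of macrophages, was at 4.07, 6.94, 6.80, 6.56 and 5.12 CPM in the sham animals and 16.3, 16.1, 27.8, 28.7 and 24.5 CPM in the irradiated animals. Its groups did not overlap, and it rose by 1.89 ± 0.28 log2 units (edgeR adjusted p = 0.000145). The chemokine receptor Ccr2 (1.23 ± 0.25), the integrin subunit Itgam (1.30 ± 0.20) and Cd68 (1.38 ± 0.27) rose, and so did the monocyte attractants Ccl2 (2.21 ± 0.39) and Ccl7 (2.04 ± 0.45), whereas the resident macrophage gene Mrc1 had 0.78 ± 0.28 log2 units (adjusted p = 0.0996). Of 26 pattern receptors and NF-kB feedback genes 8 rose. They included Tlr13, a sensor of bacterial ribosomal RNA, at 0.271, 1.59, 2.41, 1.70 and 2.05 CPM in the sham animals and 9.69, 9.97, 20.7, 20.3 and 16.5 CPM in the irradiated animals. It rose by 3.16 ± 0.34 (adjusted p = 2.85e-06), and the lectin receptors Clec4d and Clec4e and the partner receptor Tlr1 rose by 6.03 ± 0.83, 4.08 ± 0.66 and 2.50 ± 0.33 log2 units. Masp1, a protease that starts the lectin pathway of complement, was at 29.6, 21.8, 29.6, 30.4 and 23.3 CPM in the sham animals and 89.1, 104, 132, 136 and 115 CPM in the irradiated animals. It had one of the smallest p of the comparison, with a rise of 2.10 ± 0.19 log2 units (adjusted p = 3.41e-07). Of 32 interferon-stimulated genes 8 rose (median 0.40), led by the RNA sensor Oas3, from 1.50 ± 0.437 CPM in sham to 6.61 ± 0.829 CPM (SD, n = 5), a rise of 2.19 ± 0.34, with Mx1 at 1.69 ± 0.34 and Irf7 at 1.33 ± 0.28 log2 units. Their mean level in animals 96 to 100 was 4.16, 4.19, 4.18, 4.11 and 4.00 log2 CPM. The number of interferon-stimulated genes that rose became 5 without animal 80 or 98. With the muscle level as a covariate, the call ended for Ccr2 (edgeR adjusted p = 0.0942).

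Some genes of wound matrix and matrix turnover rose, while the chains of the main dermal collagen fell. Of 32 wound matrix genes 13 rose and Sparc fell (median 0.57). Prg4, the lubricating proteoglycan lubricin, was at 5.97, 6.90, 6.22, 3.16 and 4.09 CPM in the sham animals and 53.9, 70.0, 162, 164 and 104 CPM in the irradiated animals. It was higher in all 5 irradiated animals and rose by 4.37 ± 0.44 log2 units (edgeR adjusted p = 1.22e-06). Tenascin C (Tnc) rose by 5.24 ± 0.55, from 29.9 ± 22.5 CPM in sham to 1370.0 ± 906 CPM (SD, n = 5), the hyaluronan-binding Tnfaip6 by 1.87 ± 0.28, the hyaluronidase-like Cemip by 2.58 ± 0.44 and osteopontin (Spp1) by 1.68 ± 0.35 log2 units. Of 25 metalloproteinases and inhibitors 9 rose and Mmp27, Timp2 and Timp3 fell. Mmp19, a matrix metalloproteinase, was at 19.8, 25.7, 29.7, 19.0 and 31.0 CPM in the sham animals and 54.4, 57.6, 122, 123 and 97.3 CPM in the irradiated animals. It rose by 1.82 ± 0.19 (adjusted p = 2.02e-06), and the inhibitors diverged, with Timp1 at 3.46 ± 0.43, Timp2 at -0.83 ± 0.19 and Timp3 at -0.59 ± 0.18 log2 units. Of 30 collagens and collagen-modifying enzymes 3 rose, Col8a1 (1.30 ± 0.23), Col12a1 (1.79 ± 0.44) and the prolyl hydroxylase P4ha3 (2.98 ± 0.55 log2 units), and Col1a1, Col1a2, Col4a5 and Col4a6 fell. Col1a2, a chain of the main dermal collagen, was at 20030.0, 22880.0, 25280.0, 23380.0 and 22860.0 CPM in the sham animals and 13930.0, 11160.0, 6897, 13450.0 and 14360.0 CPM in the irradiated animals. Animal 98 was the lowest, the groups did not overlap, and the change was -0.94 ± 0.23, with -0.79 ± 0.22 for Col1a1 and -1.16 ± 0.21 for the basement membrane chain Col4a6 and -0.87 ± 0.24 log2 units for the collagen-binding Sparc. The number of metalloproteinases and inhibitors that rose became 5 without animal 98. The number of metalloproteinases and inhibitors that fell became 1 without animal 76, 78, 79, 80, 97, 98 or 100. The number of collagen genes that fell became 2 without animal 98. Loss of 1 animal from the fit ended the call of Timp3 (without 76, 77, 78, 79, 80, 97, 98, 99 or 100, edgeR adjusted p up to 0.159), Col12a1 (without 79 or 80, edgeR adjusted p up to 0.0529), Col1a1 (without 78, 79, 97, 98 or 99, edgeR adjusted p up to 0.105), Sparc (without 78, 79, 80, 97 or 98, edgeR adjusted p up to 0.108), Mmp27 (without 76, 78, 79, 80, 97, 98 or 100, edgeR adjusted p up to 0.151) and Col4a5 (without 98, edgeR adjusted p = 0.0534). Adding the muscle level to the fit ended the call of Timp2, Col12a1, Col1a1 and Sparc (edgeR adjusted p = 0.118 to 0.19).

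Some genes of the damage response and of cell death rose as well. Of 35 p53 targets 12 rose and Ddit4l fell, and the falls numbered 2 without animal 99 (median 0.47). The death receptor gene Tnfrsf10b was at 3.53, 5.35, 4.76, 3.77 and 4.35 CPM in the sham animals and 11.8, 10.2, 13.1, 12.2 and 11.7 CPM in the irradiated animals. All irradiated values were at least 10.2 CPM and all sham values at most 5.35 CPM, and the rise was 1.42 ± 0.20 log2 units (edgeR adjusted p = 7.38e-05). The cell cycle inhibitor Cdkn1a rose by 0.77 ± 0.17, the BH3-only gene Pmaip1 by 1.67 ± 0.34 and the kinase gene Plk2 by 1.08 ± 0.17, while Ddit4l, an inhibitor of mTOR signalling, fell by 1.16 ± 0.19 on the log2 scale. Of 30 genes of apoptosis and other cell death 10 rose (median 0.45). Mlkl, which breaks the membrane in necroptosis, was at 8.41, 6.82, 6.22, 6.01 and 5.63 CPM in the sham animals and 16.3, 19.3, 23.3, 17.6 and 15.1 CPM in the irradiated animals. It rose by 1.48 ± 0.19 (adjusted p = 2.69e-05), and its activating kinase Ripk3 by 1.58 ± 0.25 log2 units. The gasdermins Gsdmc, Gsdmc3 and Gsdmc4, pore-forming proteins, rose by 3.35 ± 0.61, 3.10 ± 0.57 and 3.60 ± 0.83 log2 units, and as close relatives their counts are uncertain. Of 28 genes of nucleotide excision repair and lesion bypass 0 passed in edgeR and in DESeq2, 1 passed in edgeR without animal 77, 5 had an unadjusted p under 0.05 in edgeR, and 3 had all irradiated values above all sham values (5.85% of all genes did). Other edgeR fits called some of these repair genes. They were 3 higher in the 10 libraries alone, 2 higher with the hair level and 3 higher with the mitochondrial share as a covariate. The muscle covariate gave 1 higher and 2 lower. The number of cell death genes that rose became 6 without animal 79, 98 or 100. The muscle level as a covariate ended the call of Pmaip1, Gsdmc3 and Gsdmc4 (edgeR adjusted p = 0.0507 to 0.0999).

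Cell division genes were higher on average, but 1 sham animal stood among the irradiated ones. Of 30 DNA replication genes 3 rose, Mcm3, Rrm2 and Tk1, and all 30 had a positive change (median 0.85, 25 at an unadjusted p under 0.05), and of 30 mitosis genes 5 rose, Cdc20, Plk1, Aurka, Cenpa and Birc5, and 29 were positive (median 1.23, also 25). Tk1, a thymidine kinase of S phase, was at 8.68, 21.6, 14.7, 13.8 and 9.59 CPM in the sham animals and 28.7, 35.9, 43.6, 30.2 and 51.9 CPM in the irradiated animals. The groups did not overlap and the rise was 1.42 ± 0.37 (edgeR adjusted p = 0.0171), with 1.71 ± 0.49 for Rrm2 and 1.58 ± 0.42 log2 units for Birc5. The mean level of the mitosis genes was 2.71, 5.01, 4.11, 3.00 and 2.95 log2 CPM in sham animals 76 to 80 and 4.56, 5.48, 5.20, 4.48 and 5.47 log2 CPM in irradiated animals 96 to 100, so that sham animal 77 lay within the irradiated range. That animal also had the highest hair shaft level of the 10, with 0.08, 3.08, 0.80, -0.55 and -0.52 log2 CPM in sham and -0.58, 1.13, 0.84, -0.41 and 1.55 log2 CPM at 40 mJ/cm2. The number of mitosis genes that rose became 0 without animal 76, 79, 80, 97 or 98, 1 without animal 78 or 100 and 27 without animal 77. The number of replication genes that rose became 1 without animal 76, 78, 97, 98 or 100, 0 without animal 79 or 80 and 17 without animal 77. The hair shaft level as a covariate gave 28 mitosis and 23 replication genes, the muscle level as a covariate 0 and 1, and DESeq2 13 and 6. The part of hair cycle and muscle content in this result was not tested. Of 30 ribosome biogenesis genes 0 passed in edgeR (12 at an unadjusted p under 0.05, and 4 called without animal 77) and 2 in DESeq2, with 29 changes positive (median 0.44). Other edgeR fits called 10 of them higher in the 10 libraries alone, 8 with the hair level and 5 with the mitochondrial share as a covariate. The muscle covariate gave 5 higher and 1 lower. Without 1 animal edgeR no longer called Tk1 (without 79 or 80, edgeR adjusted p up to 0.0638), Rrm2 (without 76, 78, 79, 80, 97, 98 or 100, edgeR adjusted p up to 0.104), Birc5 (without 76, 79, 80, 97 or 98, edgeR adjusted p up to 0.0793), Mcm3 (without 76, 78, 79, 80, 96, 97, 98, 99 or 100, edgeR adjusted p up to 0.154), Cdc20 (without 76, 78, 79, 80, 97, 98 or 100, edgeR adjusted p up to 0.126), Plk1 (without 76, 78, 79, 80, 97, 98 or 100, edgeR adjusted p up to 0.125), Aurka (without 76, 78, 79, 80, 97, 98 or 100, edgeR adjusted p up to 0.141) and Cenpa (without 76, 78, 79, 80, 97, 98 or 100, edgeR adjusted p up to 0.11). With the muscle level as a covariate, the call ended for Tk1, Rrm2, Birc5, Mcm3, Cdc20, Plk1, Aurka and Cenpa (edgeR adjusted p = 0.11 to 0.487).

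Enzymes of lipid mediators, retinoids and redox defence changed one by one. Of 26 prostaglandin and leukotriene genes 4 rose and Alox12e fell. Ptges, the terminal synthase of prostaglandin E, was at 32.5, 27.8, 33.2, 32.4 and 29.2 CPM in the sham animals and 65.2, 70.0, 109, 84.8 and 76.8 CPM in the irradiated animals. It rose by 1.38 ± 0.17 (edgeR adjusted p = 2.11e-05), and the inducible cyclooxygenase Ptgs2 and the phospholipase Pla2g4e rose by 2.38 ± 0.55 and 1.46 ± 0.21, while the lipoxygenase gene Alox12e fell by 1.52 ± 0.35 on the log2 scale. Of 22 retinoid, vitamin D and thyroid hormone genes 3 rose and 3 fell. Cyp26b1, which degrades retinoic acid, was at 72.4, 66.1, 60.7, 91.0 and 56.0 CPM in the sham animals and 204, 170.1, 199, 169.8 and 169 CPM in the irradiated animals. It rose by 1.39 ± 0.19 (adjusted p = 7.09e-05), as did the retinoic acid binding proteins Crabp1 (2.29 ± 0.32) and Crabp2 (1.90 ± 0.32 log2 units). The retinaldehyde dehydrogenase Aldh1a1 and the thyroid hormone receptor Thrb were among the falls, with changes of -0.97 ± 0.21 and -0.76 ± 0.19 log2 units. Of 34 Nrf2, glutathione and metal response genes 7 rose and 3 fell. Gsta4, a glutathione transferase for lipid aldehydes, was at 7.05, 5.69, 7.17, 6.74 and 7.55 CPM in the sham animals and 25.7, 48.4, 134, 73.3 and 61.6 CPM in the irradiated animals. It rose by 3.28 ± 0.40 (adjusted p = 1.68e-05), Gsto1 and the heme oxygenase Hmox1 by 1.42 ± 0.19 and 1.28 ± 0.26, whereas Gsta2 and the epithelial metallothionein Mt4 fell by 1.64 ± 0.36 and 1.57 ± 0.38 on the log2 scale. The number of redox and metal response genes that rose became 4 without animal 98. Adding the muscle level to the fit ended the call of Alox12e, Aldh1a1 and Mt4 (edgeR adjusted p = 0.0568 to 0.236).

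A few markers of Langerhans cells, of epidermal γδ T cells and of sebaceous lipid were among the falls. Most members of their lists did not pass. Of 16 dendritic and Langerhans cell markers Flt3, Fscn1 and Irf8 rose and Cd207 and Mgl2 fell (median -0.23, 7 changes positive). Langerin (Cd207), the defining lectin of Langerhans cells, was at 17.6, 6.90, 12.1, 15.6 and 11.6 CPM in the sham animals and 6.62, 3.15, 1.28, 4.10 and 2.60 CPM in the irradiated animals. Irradiated animal 96 was just under the lowest sham animal, 77, and the change was -1.87 ± 0.34 log2 units (edgeR adjusted p = 0.00126). Fscn1, which marks mature dendritic cells, rose by 1.02 ± 0.25 log2 units. Of these cell markers the number that rose became 1 without animal 80, and that of falls 1 without animal 78, 79, 80, 97, 98, 99 or 100. Of 23 T cell markers 4 fell and 1 rose (median -0.31, 5 changes positive). Cd3g, Cd3e and the γδ receptor constant genes Trdc and Tcrg-C1 fell, and Thy1, which other cells also carry, rose by 0.75 ± 0.21 log2 units. Cd3g, a chain of the T cell receptor complex, was at 10.8, 8.12, 12.7, 12.9 and 9.72 CPM in the sham animals and 5.81, 4.08, 2.39, 4.72 and 2.87 CPM in the irradiated animals. The groups did not overlap, and the change was -1.48 ± 0.24 (adjusted p = 0.000377), with -1.50 ± 0.28 log2 units for Trdc. Of 11 Skint genes, an epidermal family whose member Skint1 is known to select these γδ T cells, Skint7 and Skint1 fell. All 11 changes were negative (median -0.99). Skint7 was at 39.6, 19.7, 31.2, 27.4 and 40.5 CPM in the sham animals and 12.1, 8.90, 1.88, 7.15 and 0.927 CPM in the irradiated animals. Its change was -2.51 ± 0.45 (adjusted p = 0.000972), and that of Skint1 was -0.99 ± 0.31 log2 units. Of 21 fatty acid and sebaceous lipid genes 3 fell and the other 18 did not pass (median -0.06, 8 changes positive). Scd3, a desaturase of sebaceous glands, was at 261, 121, 176, 264 and 234 CPM in the sham animals and 99.8, 51.4, 20.7, 47.8 and 30.8 CPM in the irradiated animals. It changed by -2.13 ± 0.35 (adjusted p = 0.000442), and the melanocortin receptor Mc5r and the elongase Elovl5 by -1.18 ± 0.24 and -0.89 ± 0.21 log2 units. The chemokines Ccl27b and Cxcl9 changed by -2.02 ± 0.48 and -1.78 ± 0.41 log2 units with overlapping groups. After the muscle level was added the changes were -1.42 (edgeR adjusted p = 0.0306) for Cd207, -1.56 (edgeR adjusted p = 0.00346) for Cd3g, -2.91 (edgeR adjusted p = 0.00271) for Skint7 and -1.42 (edgeR adjusted p = 0.0232) for Scd3. Loss of 1 animal from the fit ended the call of Thy1 (without 76, 78, 79, 80, 97, 98, 99 or 100, edgeR adjusted p up to 0.0909), Skint1 (without 76, 77, 78, 79, 80, 97, 98, 99 or 100, edgeR adjusted p up to 0.171), Flt3 (without 80, edgeR adjusted p = 0.053), Irf8 (without 76, 77, 80, 96, 97, 98 or 99, edgeR adjusted p up to 0.0953), Mgl2 (without 78, 79, 80, 97, 98, 99 or 100, edgeR adjusted p up to 0.135) and Cd3e (without 79 or 98, edgeR adjusted p up to 0.073). The muscle level as a covariate ended the call of Skint1, Ccl27b, Mgl2 and Cd3e (edgeR adjusted p = 0.076 to 0.361).

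Other large falls came from genes of mixed function. Serpina3b, a serine protease inhibitor, was at 592, 251, 301, 508 and 434 CPM in the sham animals and 152, 183, 43.1, 173 and 63.0 CPM in the irradiated animals. The groups did not overlap, and the change was -1.78 ± 0.32 log2 units (edgeR adjusted p = 0.00104). Inmt was at 57.5, 9.29, 15.9, 39.9 and 28.1 CPM in the sham animals and 8.39, 2.54, 1.62, 5.35 and 3.34 CPM in the irradiated animals. The groups did not overlap, and its change was -2.87 ± 0.55 log2 units (adjusted p = 0.00176). Values with an SE for the other genes with the largest falls were -1.86 ± 0.45 for the cytochrome Cyp2b23, -1.84 ± 0.37 for the nonclassical histocompatibility gene H2-M2, -1.81 ± 0.37 for the cell adhesion gene Negr1, -1.75 ± 0.35 for Gdap1, -1.81 ± 0.46 for Depp1 and -1.77 ± 0.46 log2 units for the GABA receptor subunit Gabrp, the last 2 with overlapping groups. Of 28 TGF-beta superfamily genes 3 rose and 2 fell, and the activin subunit gene Inhbb rose by 1.50 ± 0.22 log2 units. The number of TGF-beta superfamily rises became 1 without animal 80. The number of TGF-beta superfamily falls became 1 without animal 78, 79, 80, 97, 98, 99 or 100. Leaving out 1 animal ended the call of Cyp2b23 (without 98, edgeR adjusted p = 0.0505), Depp1 (without 76 or 97, edgeR adjusted p up to 0.0758) and Gabrp (without 77, 98 or 100, edgeR adjusted p up to 0.11). With the muscle level as a covariate, the call ended for Inmt, Cyp2b23 and Depp1 (edgeR adjusted p = 0.0707 to 0.76).

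Skeletal muscle genes had the largest share of falls of the 61 lists. Of 25 members 16 fell and all 25 changes were negative (median -1.08, 3.76% of all genes tested fell). Casq1, the calcium store protein of fast muscle fibres, was at 1258, 1037, 1197, 1117 and 1551 CPM in the sham animals and 610.2, 333, 549.9, 466 and 476 CPM in the irradiated animals. The groups did not overlap and the change was -1.34 ± 0.23 (edgeR adjusted p = 0.000831), with -1.08 ± 0.23 for titin (Ttn) and -1.28 ± 0.30 log2 units for the calcium pump Atp2a1. None of the 25 was at 0 in any of the 10 animals. Several genes with the smallest p among the falls are also known from muscle: Mstn, the muscle growth inhibitor myostatin, changed by -1.87 ± 0.27, and Tmod1, which caps actin filaments, by -1.26 ± 0.18 log2 units. The small membrane protein gene Tmem233, the Kelch gene Klhl33 and the ferlin gene Fer1l6 changed by -1.25 ± 0.19, -1.51 ± 0.21 and -1.38 ± 0.20 log2 units. Plcd4, a phospholipase C, was at 38.2, 26.5, 38.8, 31.3 and 39.8 CPM in the sham animals and 16.0, 12.2, 14.3, 14.7 and 10.1 CPM in the irradiated animals. It had the smallest p of all falls, with a change of -1.38 ± 0.19 log2 units (adjusted p = 6.75e-05). Of 13 mitochondrially encoded genes 12 had a negative change (median -0.87), of which mt-Nd5 passed (-0.93 ± 0.28), and all 28 nuclear genes of oxidative phosphorylation were negative (median -0.38) with Sdha the one that passed (-0.50 ± 0.13 log2 units). Of 19 circadian clock genes 3 fell, among them Hlf (-0.99 ± 0.26) and Arntl (-0.56 ± 0.16 log2 units). The number of clock genes that fell became 0 without animal 79, 80, 97, 98 or 100 and 1 without animal 76. How much muscle sheet each sample held is not stated by the labels, and its part in these falls was not tested. The muscle covariate is the mean level of these same 25 genes, so that fit takes out most of their change by construction. It called 3 of them lower and 3 higher and is no test of their fall. Among the R1 libraries alone 4 of the 25 were called lower. Of 22 hair shaft and follicle matrix genes 19 changes were negative (median -1.02) and Krt32, a keratin of the hair cuticle, fell by 1.61 ± 0.28 on the log2 scale. Without 1 animal edgeR no longer called mt-Nd5 (without 76, 78, 80, 97, 98, 99 or 100, edgeR adjusted p up to 0.189), Sdha (without 80, 97, 98 or 100, edgeR adjusted p up to 0.0752), Hlf (without 79, 80, 97, 98 or 100, edgeR adjusted p up to 0.0775) and Arntl (without 76, 78, 79, 80, 96, 97, 98 or 100, edgeR adjusted p up to 0.119). Adding the muscle level to the fit ended the call of Atp2a1, itself part of that level, and of Sdha and Hlf (edgeR adjusted p = 0.0663 to 0.918).

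**Figure D4:**
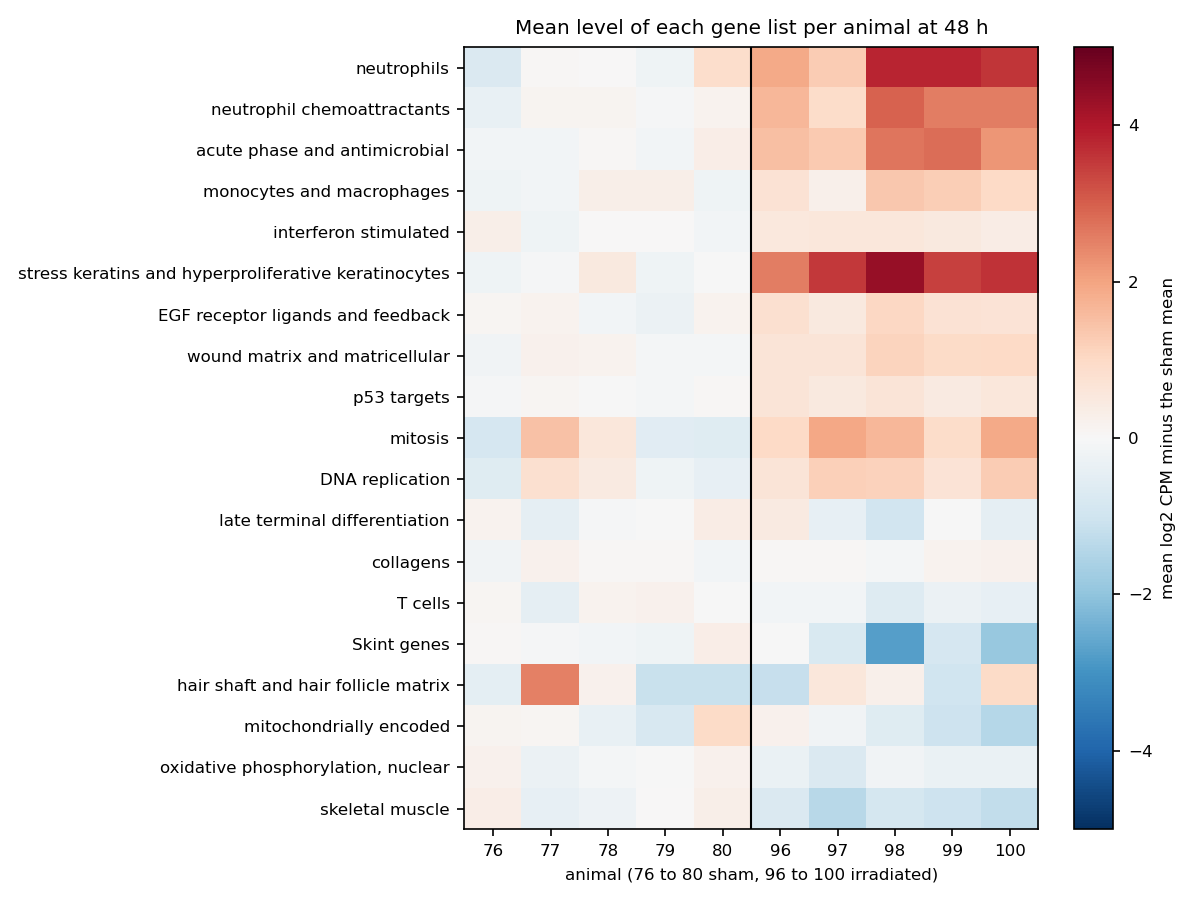
Columns are the 10 animals at 48 h and rows are gene lists; colour gives the mean log2 CPM of a list's tested members in that animal minus the mean of the 5 sham animals, from blue (lower) to red (higher). Irradiated animals 98 to 100 are redder than 96 and 97 for neutrophil genes (1.74, 1.11, 3.65, 3.67 and 3.42 log2 CPM before the sham mean was taken off), while skeletal muscle is blue in all 5.

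Lists with no call, or nearly none, complete the picture. Of 30 proteasome, 31 ribosomal protein, 24 cholesterol synthesis and 15 melanocyte genes edgeR called 0 (0, 0, 6 and 0 at an unadjusted p under 0.05), with medians of 0.08, 0.13, -0.08 and -0.27, and DESeq2 called 0, 0, 1 and 0. Without animal 77 edgeR called 1 of the cholesterol genes. The muscle level as a covariate gave calls in all 4 lists: 5, 4, 5 and 0 genes higher and 0, 0, 4 and 5 lower. In the 10 libraries alone 3 cholesterol genes were called higher and 1 lower, and 1 ribosomal protein gene higher. Of 25 AP-1 and immediate early genes 2 rose, Fosl1 (3.66 ± 0.84) and Ier3 (1.25 ± 0.32 log2 units), and the median was -0.01. Of 12 mast cell markers Hdc, the histamine-forming enzyme, rose (2.39 ± 0.40), while Kit had 0.27 ± 0.28 log2 units (edgeR adjusted p = 0.695). Of 24 endothelial and vessel genes 2 rose and 1 fell, with a rise of 1.62 ± 0.37 log2 units for the vessel peptide gene Apln. The number of vessel genes that rose became 1 without animal 76, 77, 79, 80, 98 or 100. The fall was called in none of the 10 edgeR fits without 1 animal. The call was lost without 1 animal for Ier3 (without 78, 79 or 98, edgeR adjusted p up to 0.0747).

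Lower doses at the same time are given beside these values, and all were set against the same 5 sham animals. At 5 and 10 mJ/cm2 edgeR called 0 genes (0%), with 638 and 472 at an unadjusted p under 0.05, and no other tool was run there. At 20 mJ/cm2, with 4 animals, 80 rose and 10 fell (0.428% and 0.0535%). The median change of the stressed keratinocyte genes at 5, 10, 20 and 40 mJ/cm2 was 0.37, -0.24, 2.33 and 4.90, that of neutrophil markers 0.16, 0.19, 0.24 and 4.04 and that of p53 targets 0.08, 0.15, 0.39 and 0.47. Set directly against 20 mJ/cm2, 40 mJ/cm2 had 666 genes higher (3.57%) and 793 lower (4.25%), 7.81% in all. The 20 mJ/cm2 animals 93 and 95 stood apart, with mean ribosomal protein levels of 10.50 and 10.48 log2 CPM against 8.92 and 9.19 in the other two. Without animal 93 edgeR called 385 higher and 81 lower, without animal 95 299 and 120, and without both 208 and 10. The fit without both also has fewer animals, and the part of their values in the lost calls was not tested. The total of 1459 was also 2212 and 2314 without animals 91 and 94 of the 20 mJ/cm2 group, and 746, 539, 588 and 653 without animals 97, 98, 99 and 100. Genes called lower numbered 1451 and 1546 without animals 91 and 94, and 255, 217, 226 and 241 without animals 97, 98, 99 and 100. Neutrophil markers were higher than at 20 mJ/cm2 for 10 of 14 (5 without animals 93 and 95), chemoattractants for 10 of 17 (4), stressed keratinocyte genes for 12 of 30 (10) and interferon-stimulated genes for 8 of 32 (8). The median difference from 20 mJ/cm2 without those animals was 3.39 in place of 3.43 for neutrophil markers and 2.82 in place of 3.18 for chemoattractants, so fewer were called at similar medians. The interferon-stimulated genes called numbered 5 without animal 95, 97, 98, 99 or 100. Nrg1 changed by -0.59 ± 0.54 at 20 mJ/cm2, and 40 mJ/cm2 exceeded 20 mJ/cm2 by 5.86 ± 0.50 log2 units (edgeR adjusted p = 7.5e-07). Krt6a and Fgf23 exceeded their 20 mJ/cm2 level too, Krt6a by 3.10 ± 0.30 log2 units (adjusted p = 2.47e-06). For Il1rl1 the values were -0.74 ± 0.30 and 3.06 ± 0.31 (adjusted p = 4.39e-06), for Masp1 0.09 ± 0.20 and 2.01 ± 0.21 (4.39e-06), and for Saa3 4.33 ± 0.80 and 6.21 ± 0.69 log2 units (1.46e-05). Without animals 93 and 95 the differences were 6.27 for Nrg1, 3.36 for Krt6a, 2.84 for Il1rl1, 2.06 for Masp1 and 8.79 for Saa3, and all 5 were called. Cdkn1a was higher at 20 mJ/cm2 by 0.84 ± 0.18, and its difference between 40 and 20 mJ/cm2 was -0.07 ± 0.18 log2 units (adjusted p = 0.849). Of 30 mitosis genes edgeR and DESeq2 called 0 higher and 1 lower (0 without animal 93, 95 or 99 in edgeR) at 40 than at 20 mJ/cm2, and 1 of the 30 had an unadjusted p under 0.05. The genes with the clearest falls against 20 mJ/cm2 were Mt4 (-2.97 ± 0.40), Krt32 (-2.13 ± 0.29), the acyl-CoA thioesterase Acot1 (-1.41 ± 0.23), Kazald1 (-1.41 ± 0.24), Cfap57 (-2.11 ± 0.36) and Inmt (-3.22 ± 0.57 log2 units). Without animals 93 and 95 the differences were -1.93 for Mt4 and -1.73 for Krt32, both still called, and -0.83, -0.98, -1.10 and -1.94 for the other 4, not called.

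Animals taken at other times after 40 mJ/cm2 frame the 48 h values. In a fit of the animals of all doses at 24, 48 and 72 h, 40 mJ/cm2 was set against sham of the same time. It called 466 genes at 24 h (2.5%, with 1.44% higher and 1.05% lower). At 72 h 900 genes were called (4.82%, with 3.07% higher and 1.75% lower). The median change at 24, 48 and 72 h was 3.31, 4.79 and 5.71 for stressed keratinocyte genes, 1.54, 4.13 and 4.67 for neutrophil markers, 0.47, 1.83 and 2.51 for acute phase genes and 0.78, 0.48 and 0.33 for p53 targets. The difference of the effect between 48 and 24 h passed for 0 genes in edgeR (487 at an unadjusted p under 0.05) and for 9 in DESeq2, and the difference between 48 and 72 h for 0 (184 at an unadjusted p under 0.05) and 3. Of the genes named here DESeq2 called Saa3 and Prg4, with a larger rise at 48 h than at 24 h by 5.92 and 3.05 (DESeq2 adjusted p = 0.0267 and 0.04). The 3 genes called between 48 and 72 h were predicted genes with fitted log2 changes of 38.94, 68.2 and -33.15. Predicted genes among the 9 reached 37.17 and 51.1, and such values are too large to be read as fold changes. Saa3 changed by 4.65 ± 0.97 at 24 h, 10.50 ± 1.28 at 48 h and 9.45 ± 1.20 at 72 h in this fit, and Csf3r by 1.05 ± 0.58, 3.43 ± 0.62 and 3.53 ± 0.63 log2 units.

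**Figure D5:**
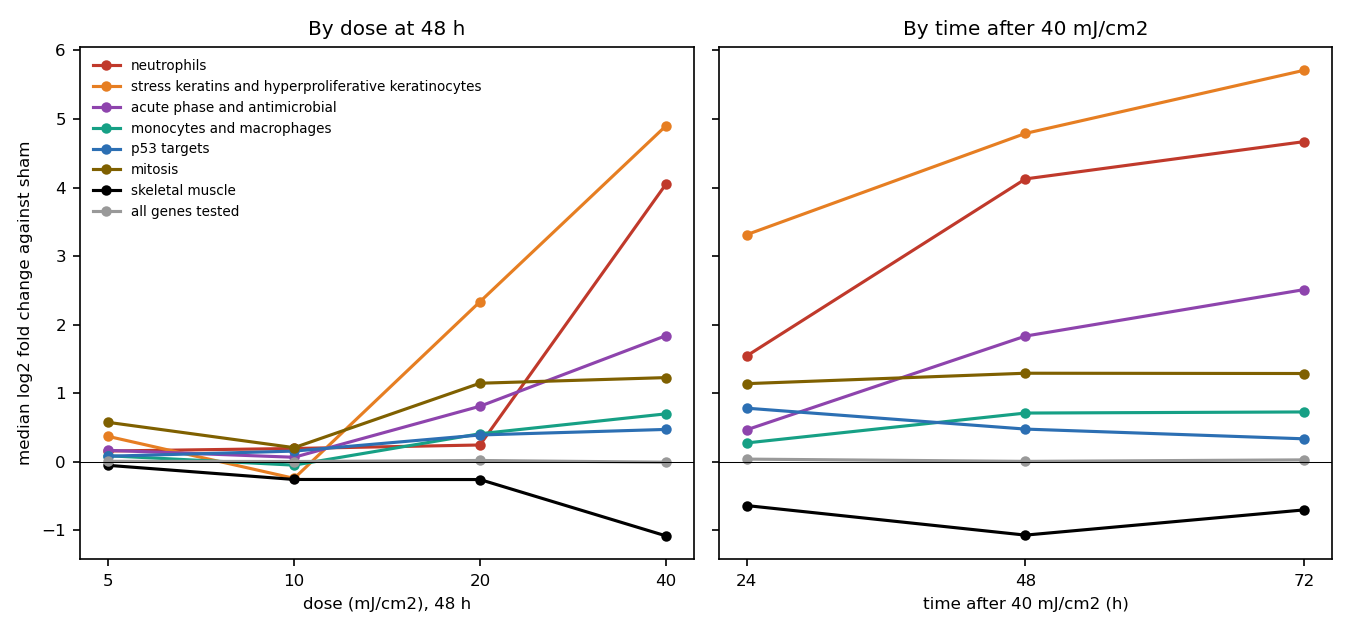
Lines give the median log2 fold change over a list's tested members, on the left against dose at 48 h (x axis in mJ/cm2, all doses set against the same 5 sham animals) and on the right against time after 40 mJ/cm2 (each set against sham of that time, in a separate fit of 24, 48 and 72 h); the grey line is the median of all genes tested. On the left the neutrophil line is at 0.24 at 20 mJ/cm2 and 4.04 at 40 mJ/cm2, and the stressed keratinocyte line at 2.33 and 4.90.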

How the data were processed

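Dorsal skin RNA of 145 mice was sequenced as poly(A) libraries (TruSeq stranded mRNA, single-end reads), per the labels. What the authors deposited is a table of expected counts, 1 column per library. Per the submitters' processing notes the tools were bcl2fastq 2.20.422, fastp 0.23.0, STAR 2.7.10a and DESeq2 1.36.1 with build GRCm39. The program behind the expected counts, the annotation and the use of strand are given by neither labels nor files used here. Of the deposited expected counts 12.6% were not whole numbers, and all were rounded.

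Of 55416 identifiers 52083 had a symbol in the table, and the rest held 0.0906% of counts. The total count per library was 3.88 to 23.6 M (1 M is 1000000) in the 5 sham animals and 5.83 to 13.3 M in the 5 animals at 40 mJ/cm2. The closest pair of libraries within a group differed by a chi-square of 7.95 per degree of freedom, so none was treated as a copy of another.

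Genes were kept by edgeR's filterByExpr over the dose and time groups of the whole series, which left 18677. List members that did not pass this filter were not tested and are left out of list counts and medians. The test was edgeR 4.0.16's quasi-likelihood F test with TMM scaling (limma 3.58.1, R 4.3.3), fitted to the 24 libraries taken at 48 h with a mean per dose and the title ending as covariate. Genes with a Benjamini-Hochberg adjusted p under 0.05 over all genes tested were called. Differences between times came from 1 fit of the libraries of all doses taken at 24, 48 and 72 h. In that fit 40 mJ/cm2 was set against sham at each time. CPM are counts per 1000000 of TMM-scaled library sizes. The test was also tried on simulated counts whose means and spread were taken from the 48 h libraries, and the outcome is not given here.

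Genes were named by a rule: the 15 largest rises and 15 largest falls among calls whose log2 CPM averaged 1 or more and whose sign held in all fits without 1 animal, the 10 smallest p in each direction, the 6 smallest p in each direction in the other tests, and up to 6 called members of each list in each direction, or its most abundant members. Genes without a symbol, predicted genes and receptor segments were not named, and not every gene the rule takes was named; a few are not reported here. Atp2a1, Cdkn1a, Cxcl2, Flg, Il1r2, Kit, Krt17, Mmp9, Mrc1, Ptx3, Spp1, Sprr2d, Sprr2e and Stat3 are outside the rule and were named after their values were seen.

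The comparison, the 61 gene lists and the tests were chosen with earlier results of these data known, so counts over the lists are descriptions and carry no test. Alternatives were DESeq2 1.42.0, RLE scaling, total counts, no filter, a mean CPM of at least 1, no title ending, the 10 libraries alone, all libraries, each title ending alone, muscle, hair and mitochondrial covariates, and leaving out each animal.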

Additional observations from a re-analysis of the deposited data

Results flagged for a closer look

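There were 76 sets of 5 animals, 1 for each group of each gene or list level shown by animal. In 3 of them 1 animal was far from the others, judged by its gap to the nearest animal as a share of the whole range. Chance does this in about 1 in 20 sets. That rate does not apply to sets with all values at 0 or with 1 count in all, whose outcome is fixed. Amphiregulin (Areg) was at 26.1 CPM in irradiated animal 98, with a gap of 0.809 of the range, while the other irradiated animals were at 7.70 to 11.2 CPM. Sprr2h was at 0.805 CPM in sham animal 78, with a gap of 0.792 of the range, and at most 0.167 CPM in the other sham animals. Fgf23 was at 0.0732 CPM in the same sham animal, which is its 1 count, and at 0 in the other 4.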

How the results depend on the processing

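No paired analysis was possible because sham animals (76 to 80) and irradiated animals (96 to 100) share no replicate number. In 40 mJ/cm2 against sham, 1443 genes were called (741 higher, 702 lower). Numbers called were 658 (440, 218) in the R1 libraries alone, 19 (19, 0) in the R1_001 libraries alone, 3429 (1926, 1503) with muscle as a covariate and 3055 (1680, 1375) in the 10 libraries alone. All libraries in 1 fit gave 913, of them 403 lower. The hair level as a covariate gave 1143 higher, the mitochondrial share 1187 lower and total counts 397 lower. Without 1 animal each the numbers ran from 842 to 1682 in all, 487 to 904 higher and 355 to 778 lower. The other alternatives gave 1429 to 2132 in all. With total counts all 5 irradiated values lay above sham in 1925 genes and below in 702, in place of 1092 and 1205.

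Against 20 mJ/cm2, 1459 genes (666, 793) became 2190 with DESeq2 (1320 lower), 1361 lower with no filter and 218 (208, 10) without animals 93 and 95, an alternative chosen after seeing the data, and ran from 419 to 2314 (299 to 768, 81 to 1546) without 1 animal each. The tests between times called 0 genes in edgeR, also without any 1 of the 10 animals at 48 h, and 9 and 3 in DESeq2. The 3 were all predicted genes. The cause of these shifts was not tested.

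Of 185 genes named and called in edgeR, 151 were called in every fit without 1 animal. In edgeR 42 were not called with muscle as a covariate, 49 in the R1 libraries alone, 169 in the R1_001 libraries alone and 39 in the fit of all libraries, and 1 was not in DESeq2. The 1 reversed sign among these named genes was Pfkm's, at 0.02 with muscle as a covariate. Of all 702 genes that fell, 671 kept their sign in that fit. Depth sets the limit for genes near 0: the shallowest of the 10 libraries, sham animal 76, held 3.88 M counts.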

Other observations

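Stromal and metabolic lists held few calls, and their members went both ways. Of 22 fibroblast genes 4 rose and 3 fell (median -0.19, against 3.97% and 3.76% of all genes tested). Podoplanin (Pdpn), a membrane mucin of activated fibroblasts and of lymphatic vessels, was at 40.7, 60.0, 51.7, 39.8 and 40.8 CPM in the sham animals and 103, 82.2, 220.0, 220.4 and 159 CPM in the irradiated animals. The groups did not overlap and it rose by 1.69 ± 0.28 log2 units, whereas Mfap4, a glycoprotein of elastic fibres, changed by -1.28 ± 0.27 log2 units, from 493 ± 110 CPM to 204 ± 45.1 CPM (SD, n = 5). Without animal 78, 79, 97 or 98 the fibroblast falls numbered 1. Of 29 genes of glycolysis and hypoxia 5 rose and 2 fell: Hk3, the hexokinase of myeloid cells, and the mutase Pgam1 rose by 1.45 ± 0.33 and 0.83 ± 0.17 log2 units, and the muscle phosphofructokinase Pfkm changed by -1.18 ± 0.28 log2 units. These rises numbered 2 without animal 98 or 100 and 3 without 78, 80 or 97, and the falls 1 without 76, 79, 80, 96, 97, 98, 99 or 100. Car3, a carbonic anhydrase abundant in fat and in slow muscle, was the 1 gene that passed of 21 adipocyte markers (2 without animal 77), with -1.09 ± 0.22 log2 units, from 2986 ± 686 CPM to 1411 ± 341 CPM (SD, n = 5). Of 13 pericyte and smooth muscle genes 2 fell (1 without animal 76, 79, 80, 97, 98, 99 or 100), with -0.90 ± 0.18 log2 units for the actin-binding Synpo2, and of 14 Schwann cell and nerve genes 13 changes were negative and 1 passed (median -0.60). That count was 2 without animal 77 and 0 without each of the other 9 animals. With the muscle level as a covariate Mfap4, Car3 and Synpo2 were not called (edgeR adjusted p = 0.0549 to 0.2), and Pfkm had 0.02 log2 units (edgeR adjusted p = 0.942). The part of muscle in these falls was not tested.

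Single members of other immune and stress lists rose or fell, beside 3.97% and 3.76% of all genes tested. Of 27 CC and other chemokines 5 rose and 4 fell (2 fell without animal 79 or 100). Cxcl12, a stromal chemokine for leukocytes and stem cells, was at 190, 171, 160.1, 183 and 171 CPM in the sham animals and 256, 230, 594, 542 and 364 CPM in the irradiated animals. Animals 98 to 100 were the highest, and the rise was 1.16 ± 0.22 log2 units. Ccl4, a chemokine for monocytes and lymphocytes, rose by 2.67 ± 0.63 log2 units with overlapping groups. Of 21 antigen presentation genes 1 rose and 2 fell (median -0.04), and the 1 was Ctss, the cathepsin that trims the invariant chain (1.18 ± 0.21 log2 units). The platelet chemokine gene Ppbp rose by 3.41 ± 0.59 log2 units. Of 28 heat shock and unfolded protein genes 4 rose and 1 fell, and the stress sensor Sesn2 rose by 1.03 ± 0.22 log2 units, from 15.3 ± 1.42 CPM to 31.2 ± 4.82 CPM (SD, n = 5). Those 4 rises became 1 without animal 79, 80 or 98 and 2 without 76 or 97, and the fall was lost without 76, 79, 80, 97, 98 or 100. All the genes named in these 2 paragraphs were called in each of the 10 edgeR fits without 1 animal.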
